A study of Mus musculus with 10 samples.

Results

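The variable (V) segments of the mouse immunoglobulin heavy chain locus (IgH) are the 183 entries of the deposited count table whose gene symbol begins with Ighv, of 46959 gene entries in all. They were taken by symbol alone and ordered by their start in mm10/GRCm38, from Ighv5-1 at chr12:113572927-113573402 to Ighv1-86 at chr12:116009659-116010093, a span of 2.44 Mb. All but 1 (Ighv1-13) lie on the reverse strand. Their symbols give 16 families, with 92 segments in family 1, 21 in family 5, 16 in family 8, 11 in family 2, 8 in family 3, 7 in family 6 and 4 or fewer in each of the other 10. GENCODE vM21, in which all 183 were found with the same start and end, types 113 as V genes and 68 as V pseudogenes, and 2 carry another or a mixed type. No library held a count for 34 of them, 29 of which were pseudogenes.

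A heavy chain variable exon is put together in developing B cells by the RAG1 and RAG2 recombinase, which first joins a D segment to a J segment and then one V segment to the DJ unit. Unjoined V segments are also transcribed from their own promoters, at low level, in pro-B cells, and this germline transcription accompanies the opening of the V cluster to recombination. After joining, the chosen V segment is spliced to the constant exons and expressed under the intronic enhancer Eµ and the 3′ regulatory region (3′RR), so V counts in mature B cells and plasma cells mostly follow the repertoire of joined segments. In the mouse the V segments nearest the D segments mostly belong to families 5 and 2, and the far end is dominated by family 1 (J558) with family 8 interspersed.

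RNA sequencing covered 5 groups of 2 libraries, all from mice aged 8 to 10 weeks. Cells labelled femoral B cells (called marrow below), strain C57BL6, had their RNA extracted without culture and carry the names 2KO (replicates 1 and 3), deltaEmu (5 and 7) and RAG2_deficient (1 and 2). The labels do not spell out 2KO, the design text speaks of mice deficient for 5′Eµ and the 3′RR, and no femoral group without a mutation was analysed here. Splenocytes lacking CD43, named wt, were held in culture with 5 µg/ml of lipopolysaccharide (LPS) and 20 ng/ml of interleukin 4 (IL4) over 48 h, alone (LPS_IL4) or with SAHA, a histone deacetylase inhibitor whose dose reads 200 nM in the names and 200 ng/ml in the protocol (LPS_IL4_SAHA). Both spleen groups carry the same pool names, 4_et_7 and 6_et_8, and the design text describes the RNA as pooled over mice. The spleen samples are listed as strain 129, while their culture protocol names KOKI mice and BLACK-6 controls. V segment alleles differ between mouse strains and the counts rest on the C57BL/6J genome. The spleen cells also differ from the marrow in named genotype, CD43 selection and culture with LPS and IL4. Tissue, strain, genotype, selection and culture therefore cannot be told apart in any difference between spleen and marrow. Values given as a pair follow the replicate order of this paragraph, with 4_et_7 before 6_et_8.

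Total counts ran from 17710154 to 25544275 per library. Columns were assigned by the sequencing index that ends each description. The number that opens each title would assign 8 of the 10 columns differently, and all comparisons below rest on the index. With the index, the recombinase gene Rag1 lay at 141 to 919 CPM (the counts-per-million unit, here scaled with TMM factors over all 10 libraries) in the femoral libraries and at 0.0417 CPM or less in the spleen. Rag2, the gene named in RAG2_deficient, had 21.7 and 23.8 CPM there, 13.6 and 20.4 in deltaEmu, 20.1 and 13.3 in 2KO and 0 in the spleen. A count over the whole gene does not show whether those reads lie in the deleted part, which the labels do not give, so it does not check the label. The titles also place SAHA on the opposite spleen samples. The femoral libraries were not pure B cells: 10 neutrophil markers summed to 7021 to 21180 CPM in them, 10 erythroid markers to 2643 to 15857 CPM and 8 stromal markers to 1222 to 8616 CPM. Fewer cells of a type and less RNA per cell cannot be told apart in such bulk libraries, and 2 libraries per group measure only the spread between these RNA pools.

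Many V segments are close copies of each other, which bears on how far a count can be pinned to 1 of them. Over the 290 bases at the 3′ end of the GENCODE vM21 transcripts (GRCm38), the nearest other segment was 93.5% identical in the median, and 32 of the 182 segments compared had one at 97% or more. The segments below show the scale of these differences for family 14, whose member Ighv14-2 led the counts of RAG2_deficient. Each line is the last 150 bases of the transcript, 5′ to 3′, ending just beyond the tgt codon of the conserved cysteine that closes the V region, with capitals at bases that differ from Ighv14-2:
Ighv14-2: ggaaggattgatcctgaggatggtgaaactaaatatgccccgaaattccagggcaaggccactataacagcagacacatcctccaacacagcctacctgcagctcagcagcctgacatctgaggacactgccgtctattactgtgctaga
Ighv14-1: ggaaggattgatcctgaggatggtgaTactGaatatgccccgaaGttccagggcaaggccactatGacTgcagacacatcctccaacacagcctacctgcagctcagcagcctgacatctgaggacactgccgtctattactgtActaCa
Ighv14-3: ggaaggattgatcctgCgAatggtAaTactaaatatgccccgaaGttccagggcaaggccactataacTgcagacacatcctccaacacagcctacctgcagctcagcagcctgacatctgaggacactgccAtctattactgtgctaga
Ighv14-4: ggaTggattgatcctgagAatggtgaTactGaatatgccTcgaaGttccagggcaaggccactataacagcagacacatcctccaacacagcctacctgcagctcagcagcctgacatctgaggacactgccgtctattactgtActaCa
Ighv14-2 (chr12:113994469-113994898) differed from Ighv14-1 (chr12:113931953-113932382) at 7 of the 150 positions, from Ighv14-3 (chr12:114059845-114060321) at 7 and from Ighv14-4 (chr12:114176438-114176867) at 8, with no gap. A read long enough to span several capitals separates these segments, but Ighv14-2 and Ighv14-1 shared a run of 82 bases without a difference, and how reads with several matches were counted is not given in the sources used here. The second set takes 3 segments of family 1 from the far end of the cluster, with capitals at bases that differ from Ighv1-84, the nearest relative of the other two:
Ighv1-84: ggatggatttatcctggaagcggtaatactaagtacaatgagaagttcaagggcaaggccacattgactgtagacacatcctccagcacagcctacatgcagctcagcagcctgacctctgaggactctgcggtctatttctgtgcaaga
Ighv1-66: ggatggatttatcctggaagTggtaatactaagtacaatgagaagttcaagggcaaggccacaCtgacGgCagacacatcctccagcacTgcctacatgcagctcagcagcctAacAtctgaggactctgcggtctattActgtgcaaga
Ighv1-75: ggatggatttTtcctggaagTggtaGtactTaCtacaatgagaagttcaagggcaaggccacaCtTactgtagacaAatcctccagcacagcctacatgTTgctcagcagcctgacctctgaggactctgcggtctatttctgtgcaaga
Ighv1-66 (chr12:115593110-115593591) differed from Ighv1-84 (chr12:115980702-115981134) at 8 positions and Ighv1-75 (chr12:115833950-115834418) at 10. They are shown because Ighv1-66 led the counts of 2KO and Ighv1-75 came second in RAG2_deficient, while Ighv1-84 had 12 and 12 counts in 2KO and 0 and 2 in RAG2_deficient.

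Summed V counts were lowest in 2KO and highest in the cultured spleen cells. The 2 libraries of 2KO held 406 and 296 V counts (19.3 and 13.2 CPM), those of RAG2_deficient 684 and 571 (40.5 and 27.7 CPM) and those of deltaEmu 6104 and 7309 (301 and 417 CPM). LPS_IL4 held 19209 and 17026 (1033 and 684 CPM) and LPS_IL4_SAHA 17250 and 17859 (720 and 804 CPM). The order 2KO, RAG2_deficient, deltaEmu, spleen had no overlap between neighbours, whereas both SAHA libraries lay between the LPS_IL4 pools.

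**Figure D1:**
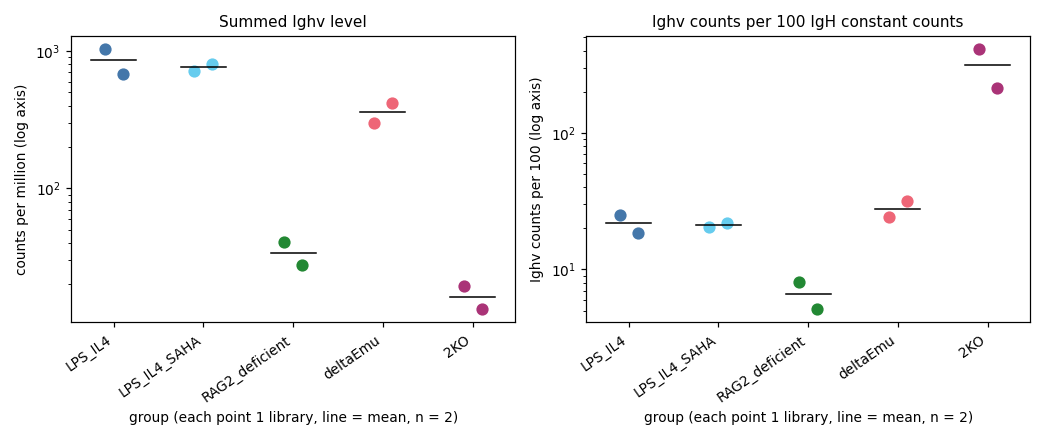
Left, summed Ighv CPM on a log axis, and right, Ighv counts per 100 counts of the IgH constant genes on a log axis, by group; each point is 1 library and the line is the mean of 2. On the left 2KO lies lowest at 13.2 and 19.3 CPM, and on the right it lies highest at 213 and 410.

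Set against the constant genes of the same locus, the order was different. For every 100 counts of the 8 IgH constant genes there were 410 and 213 V counts in 2KO, 24.0 and 31.7 in deltaEmu and 8.13 and 5.11 in RAG2_deficient. The spleen libraries had 25.1 and 18.3 without SAHA and 20.5 and 22.0 with it. In 2KO the constant genes together had only 99 and 139 counts, against 8414 and 11177 in RAG2_deficient and 25410 and 23086 in deltaEmu. 2KO was the only group in which V counts outnumbered constant counts. In this ratio 2KO and RAG2_deficient overlapped no other group, while both SAHA libraries and the lower deltaEmu library lay between the LPS_IL4 pools. The IgM constant gene Ighm stood at 487 and 522 CPM in RAG2_deficient and 472 and 555 CPM in deltaEmu, but at 4.33 and 5.92 CPM in 2KO.

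Shares by position along the cluster differed between the 3 femoral groups, though 2KO and RAG2_deficient came closer once the leading segment of each library was left out. The segments were cut by start into 4 bins of 46, 46, 46 and 45, bin 1 running from Ighv5-1 to Ighv9-1 nearest the D segments and bin 4 from Ighv1-55 to Ighv1-86 at the far end. In 2KO, bin 4 took 78.3% and 74.3% of the V counts and bin 1 took 4.19% and 4.05%. In deltaEmu, bins 1 and 2 took 42.9% and 45.6%, and 40.0% and 38.4%, and bin 4 took only 11.0% and 10.2%. The spleen libraries spread their counts most evenly, with 19.7% to 20.3% in bin 1, 27.2% to 29.2% in bin 2, 23.8% to 25.0% in bin 3 and 26.0% to 28.1% in bin 4.

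**Figure D2:**
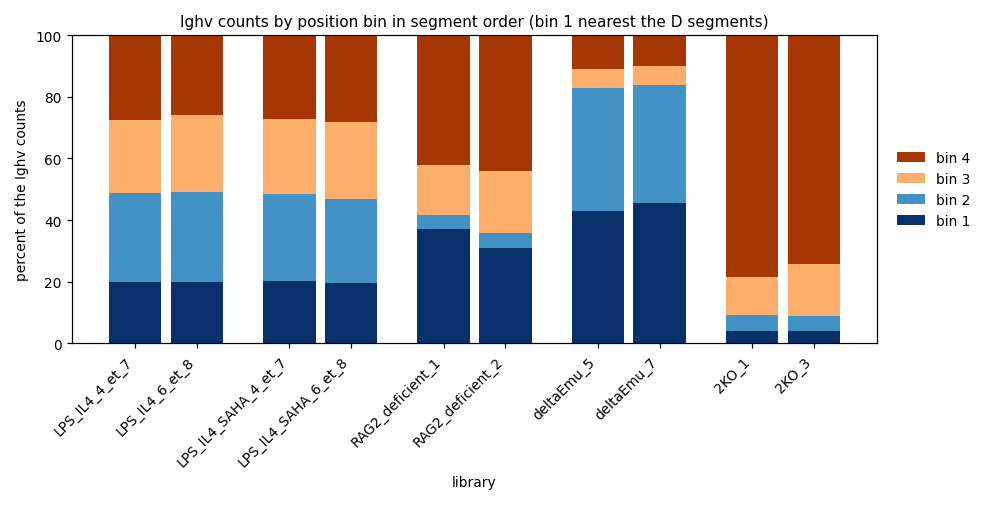
Percent of each library's Ighv counts in the 4 position bins, 1 stacked bar per library. Bin 4 fills 78.3% and 74.3% of the 2KO bars and 11.0% and 10.2% of the deltaEmu bars, and the 4 spleen bars are nearly alike.

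RAG2_deficient had most of its counts at the ends of the cluster, with 37.1% and 31.0% in bin 1, 4.39% and 4.90% in bin 2, 16.4% and 20.1% in bin 3 and 42.1% and 44.0% in bin 4. Its bin 1 rested on Ighv14-2 alone: with the most abundant segment of each library left out, bin 1 took 6.93 ± 1.68% (SD, n = 2) and bin 4 took 60.8 ± 1.05%. On the same basis these bins took 4.96 ± 0.251% and 71.6 ± 2.61% in 2KO, and 51.3 ± 1.58% and 12.3 ± 0.842% in deltaEmu. In levels, bin 4 of 2KO and of RAG2_deficient lay within each other's spread, at 12.5 ± 3.78 and 14.6 ± 3.47 CPM (SD, n = 2), while bin 4 of deltaEmu had 37.8 ± 6.55 CPM. Bin 1 differed far more, with 0.672 ± 0.194 CPM in 2KO, 11.8 ± 4.58 in RAG2_deficient and 160 ± 43.1 in deltaEmu. The median V count lay 2020 kb from the lowest start in both 2KO libraries, 568 kb in both deltaEmu libraries, 1424 and 1586 kb in RAG2_deficient and 1110 to 1136 kb in the spleen. With 4 bins of equal length in bases, the nearest bin of deltaEmu held 70.8 ± 0.106% and the farthest bin of 2KO 68.9 ± 3.27%.

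**Figure D3:**
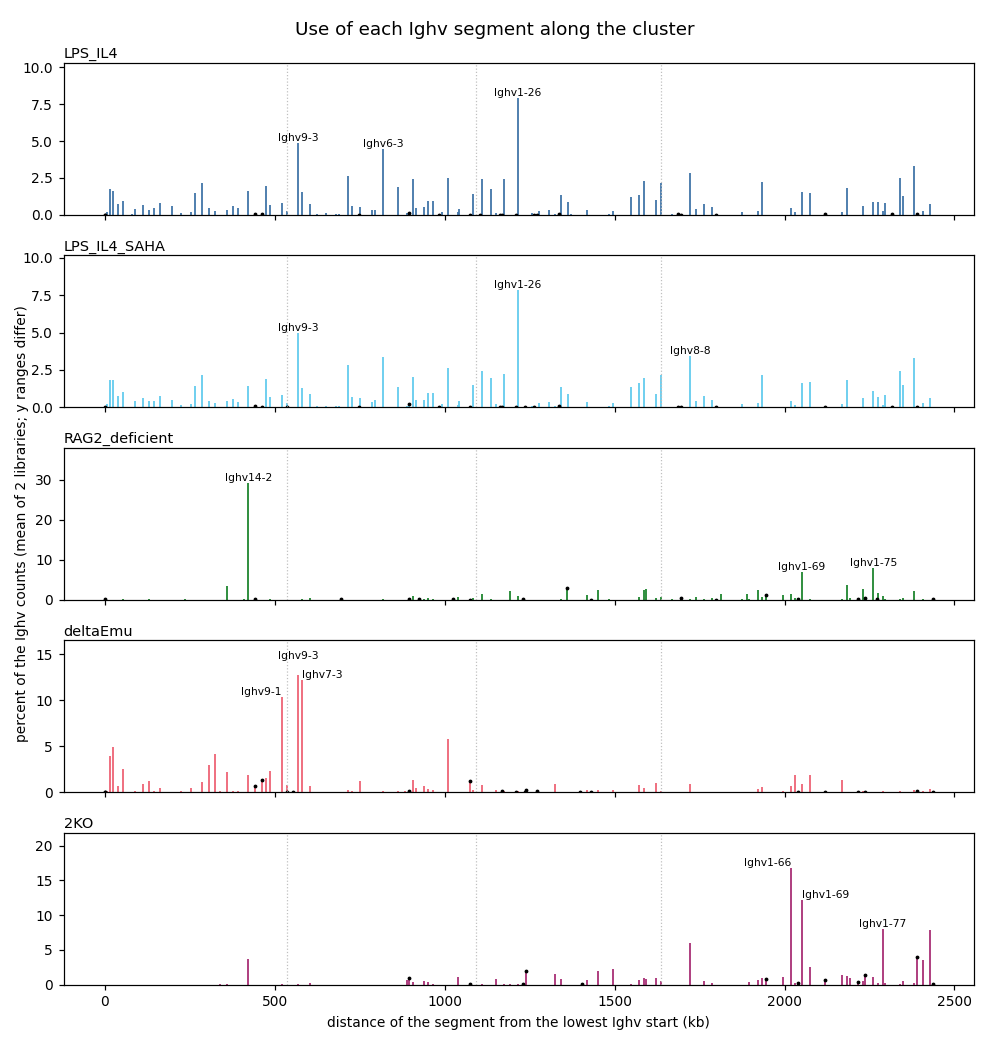
Percent of the Ighv counts taken by each segment (mean of 2 libraries) against its distance in kb from the lowest Ighv start, 1 panel per group with its own vertical range; black dots mark pseudogenes, dotted lines the bin borders, and the 3 most used segments are named. The median count lies at 2020 kb in 2KO and at 568 kb in deltaEmu, and RAG2_deficient shows the single tall line of Ighv14-2.

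The families followed the same lines. Family 1, the largest, took 76.4% and 75.3% of the V counts in 2KO, 52.8% to 54.7% in the 4 spleen libraries, 51.2% and 56.4% in RAG2_deficient and only 22.1% and 22.0% in deltaEmu. Family 8, whose members are scattered among the distal family 1 segments, came to 18.5% and 19.3% in 2KO, 8.48% and 10.2% in RAG2_deficient, 3.60% and 3.42% in deltaEmu and 4.45% to 5.62% in the spleen. Families 2, 3, 4, 5 and 6, which hold 49 segments, had no count in either 2KO library, where 3 counts of the 702 would be a share of 0.427%. In RAG2_deficient, family 3 also had none, and families 2, 4, 5 and 6 had 15 counts between them.

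**Figure D4:**
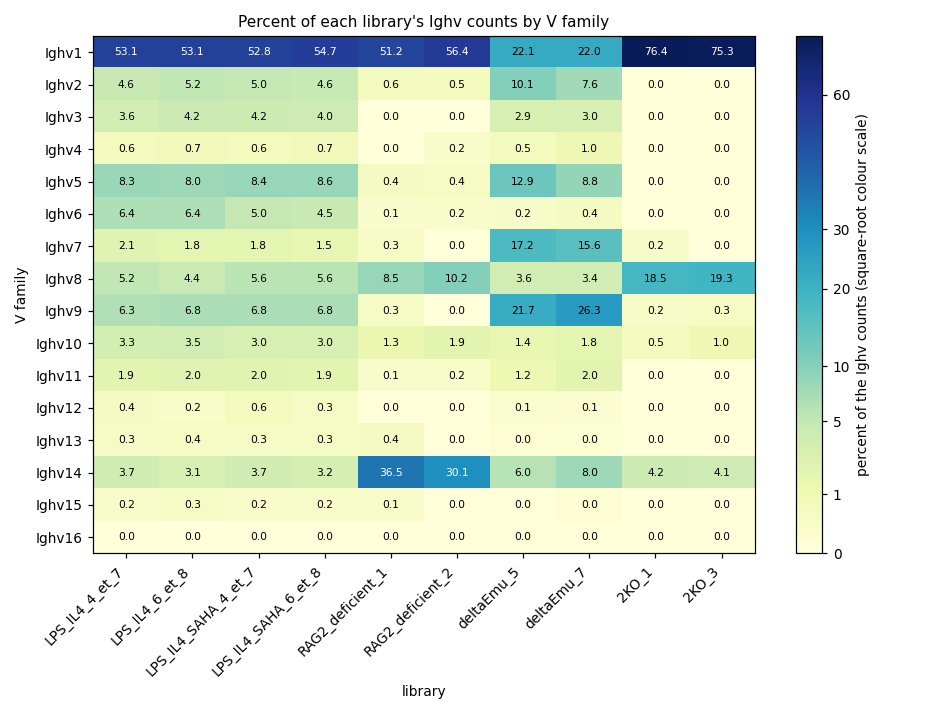
Percent of each library's Ighv counts by V family (rows) and library (columns), with the value in each cell and a square-root colour scale. Family 1 is highest in every library except deltaEmu replicate 7, where family 9 has 26.3% against 22.0%, and family 14 stands out in RAG2_deficient at 36.5% and 30.1%.

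Families 7 and 9, of 4 segments each, marked deltaEmu, with 17.2% and 15.6% and with 21.7% and 26.3% of its V counts. In the spleen family 7 took 1.52% to 2.06% and family 9 6.29% to 6.85%, and in 2KO and RAG2_deficient neither passed 0.338%. Family 14 took 36.5% and 30.1% in RAG2_deficient, against 5.96% and 8.00% in deltaEmu, 4.19% and 4.05% in 2KO and 3.13% to 3.70% in the spleen. Family 6 was near absent from the marrow, with at most 0.397% in any femoral library, but took 4.51% to 6.40% in the spleen. Family 16 has a single segment and had no count in any library.

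The use of single segments was most even in the spleen. Between 118 and 124 segments had at least 1 count there, against 103 and 112 in deltaEmu, 72 and 66 in RAG2_deficient and 53 and 52 in 2KO. The totals differ, and at a common 296 V counts per library the number expected was 72.0 to 73.2 in the spleen, 54.1 and 54.8 in deltaEmu, 52.6 and 53.0 in RAG2_deficient and 48.0 and 52.0 in 2KO. The 3 femoral groups were therefore close at equal depth. The inverse Simpson index, which counts how many equally used segments would give the same concentration, was 40.8 to 43.3 in the spleen, 16.8 and 17.6 in deltaEmu, 12.7 and 15.9 in 2KO and 8.32 and 10.5 in RAG2_deficient.

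Libraries of 1 group ranked the 183 segments alike. As a description, the Spearman correlation of segment counts was 0.98 within each spleen group, 0.93 between the deltaEmu libraries, 0.76 between those of 2KO and 0.75 between those of RAG2_deficient, where most counts are small. Between groups it ran from 0.98 to 0.99 across the 2 spleen conditions, 0.68 to 0.70 between spleen and deltaEmu, 0.52 to 0.59 between RAG2_deficient and 2KO, 0.37 to 0.39 between deltaEmu and 2KO, and 0.27 to 0.32 between deltaEmu and RAG2_deficient. The spleen libraries correlated at 0.29 to 0.34 with 2KO and at 0.28 to 0.39 with RAG2_deficient. The share of counts falling on the same segments was 30.2% to 31.7% between RAG2_deficient and 2KO and 15.6% to 17.9% between deltaEmu and 2KO. All points share the same annotation and its many segments without counts, which pull such correlations together.

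In the cultured spleen cells Ighv1-26 (chr12:114788372-114788805, bin 3) led every library, with 1441 and 1422 counts without SAHA and 1321 and 1428 with it, or 7.50% to 8.35% of the V counts. Ighv9-3, Ighv6-3, Ighv1-82 and Ighv8-8 made up the rest of the first 5. Ighv9-3 had 898, 854, 856 and 891 counts, and Ighv8-8 591, 436, 602 and 600, in the order LPS_IL4 then LPS_IL4_SAHA. Ranked per kb of segment length the same 5 led both groups. In the marrow Ighv1-26 was minor, with 10 and 16 counts in deltaEmu, 7 and 5 in RAG2_deficient and 1 and 0 in 2KO.

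In deltaEmu 3 neighbouring segments stood out. Ighv9-1 (chr12:114093928-114094358), Ighv9-3 (chr12:114140692-114141122) and Ighv7-3 (chr12:114153180-114153644) lie within a stretch that spans the border of bins 1 and 2. Ighv9-1 had 547 and 855 counts, Ighv9-3 753 and 957, and Ighv7-3 882 and 730. The next, Ighv1-9, had 320 and 466. Ighv5-4, in the family nearest the D segments, followed with 352 and 292. The most used segment was Ighv7-3 in replicate 5 and Ighv9-3 in replicate 7, so the 2 libraries differ in order.

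In RAG2_deficient Ighv14-2 had 216 and 153 counts, 31.6% and 26.8% of all V counts. Its level of 10.1 ± 3.81 CPM (SD, n = 2) overlapped that of deltaEmu (6.81 ± 3.29 CPM) and the spleen range of 9.95 to 18.1 CPM. No other V segment passed 50 counts in a RAG2_deficient library. The other members of its family, printed above, had 29 and 16 counts (Ighv14-1), 0 and 1 (Ighv14-3) and 5 and 2 (Ighv14-4), whereas in deltaEmu Ighv14-1, Ighv14-2 and Ighv14-3 were of the same order at 111 and 185, 91 and 160, and 128 and 180. After Ighv14-2 came the distal family 1 segments Ighv1-75, with 50 and 49 counts, and Ighv1-69, with 49 and 38. Ighv14-1 ranked next and then Ighv1-72, with 23 and 22. Ighv1-72 (V186.2) is known for its part in the antibody response to the hapten NP, and its nearest relative Ighv1-62-3, 99.3% identical with a shared run of 220 bases, had 12 and 6 counts, so those 2 are uncertain one against the other.

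In 2KO the leading segments were Ighv1-66 with 75 and 45 counts, Ighv1-69 with 62 and 27, Ighv1-77 with 28 and 27, Ighv1-85 with 26 and 28 and Ighv8-8 with 24 and 18, all of them in bin 4. Ranked per kb the first 5 were the same segments. Ighv1-66 held 18.5% and 15.2% of the V counts there, against 1.34% on average in RAG2_deficient, 0.731% in deltaEmu and 0.472% in LPS_IL4. The only segment of bin 1 with more than 1 count in a 2KO library was Ighv14-2, with 14 and 12.

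The comparison of 2KO with deltaEmu bears on the series' question of what is lost when the 3′RR is deleted as well as Eµ. The labels do not spell out 2KO, so this holds only as far as the design text carries it. In the fit of all 16538 genes of the 6 femoral libraries, 40 of the 183 segments were called lower in 2KO and 0 higher, where 1.91% of all genes tested were called lower and 1.79% higher. The filter on low counts let 59 segments through, many of them only because deltaEmu was high, so the share among those 59 is not read as support. The 0 higher calls stand beside 45 segments with an unadjusted p under 0.05 in either direction, and DESeq2 gave 0 higher and 39 lower. By position, 18 calls fell in bin 1, 12 in bin 2, 5 in bin 3 and 5 in bin 4. Family 14 was called lower in 4 of 4 segments tested, family 5 in 6 of 6 and family 1 in 14 of 28. The rest of the 21 segments of family 5 and of the 92 of family 1 were not tested. Bins 1 to 4 had 18, 13, 12 and 16 segments tested, so the spread over bins and families also follows the filter.

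Among the segments of highest level in deltaEmu, Ighv7-3 had no count in 2KO against 882 and 730, at least 308-fold lower (3 counts per library taken as the floor; edgeR adjusted p = 0.000294). Ighv9-3 had 0 and 1 counts in 2KO, 1966-fold lower with a 95% counting interval of 352 to 77681 (adjusted p = 0.00018). Such intervals and floors cover counting error only. Ighv1-9, with 0 and 0 counts, was at least 153-fold lower (adjusted p = 0.0016), and Ighv5-4, also at 0, at least 123-fold lower (adjusted p = 0.000453). Ighv7-1, the S107 segment known from antibodies to phosphorylcholine, had 161 and 409 counts in deltaEmu and none in 2KO, at least 113-fold lower (adjusted p = 0.0089). That call was lost with DESeq2 (adjusted p = 0.253), and the bound was 57.4-fold without deltaEmu replicate 7. Ighv2-2 was at least 99.4-fold lower (adjusted p = 0.000919).

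Ighv14-2 fell less, from 6.81 ± 3.29 to 0.600 ± 0.0934 CPM (log2 -3.48 ± 0.49 SE, 11.3-fold, adjusted p = 0.00922). Distal segments differed in how far they stood apart. Ighv1-67 was 143-fold lower in 2KO (interval 39.2 to 1188, adjusted p = 0.000453) and Ighv8-12 15.4-fold lower (adjusted p = 0.00587). The leading segments of 2KO were not called: Ighv1-66 had 2.79 ± 1.11 CPM in 2KO and 2.57 ± 0.156 in deltaEmu (log2 0.13 ± 0.40 SE, adjusted p = 0.927), Ighv1-85 had 1.24 ± 0.00634 and 1.15 ± 0.307 (log2 0.12 ± 0.46, adjusted p = 0.938), and Ighv1-77 had 1.27 ± 0.0924 and 0.674 ± 0.257 (log2 0.93 ± 0.44, adjusted p = 0.374). These misses of the threshold leave the standard errors given as the limit of what could be seen. The other leaders of 2KO, Ighv8-8 and Ighv1-69, were not called either. Ighv8-8 was lower in 2KO, with 24 and 18 counts against 44 and 74 in deltaEmu, and Ighv1-69 had 62 and 27 against 47 and 68.

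Other genes moved with this comparison. Of 10 plasma cell markers 3 were called lower in 2KO (Jchain, Irf4 and Tnfrsf17) and 0 higher. The list summed to 311 to 335 CPM in 2KO and 885 to 992 CPM in deltaEmu. Jchain, which joins secreted IgA and IgM, stood at 436 and 544 CPM in deltaEmu and 0.0476 and 0.0445 CPM in 2KO, and the IgA constant gene Igha at 710 and 688 CPM against 0.0952 and 0 CPM. Of 10 mature B cell markers 4 were called lower (Cr2, Cd22, Fcer2a and Ms4a1), with summed levels of 834 to 992 CPM in 2KO and 1352 to 1464 CPM in deltaEmu. Of 10 erythroid markers 9 were called higher in 2KO (10760 to 15857 against 2643 to 2777 CPM). Of 10 neutrophil markers 0 were called, with sums of 9245 to 11087 CPM in 2KO and 18449 to 21180 CPM in deltaEmu. Of 8 stromal markers 1 was called lower (Dcn), with sums of 1222 to 1732 and 2405 to 2529 CPM. The part of these cell types in the V segment differences was not tested. The number of calls moved with single libraries: leaving out deltaEmu replicate 5 gave 23 lower segments and leaving out its replicate 7 gave 16, while 26 remained in number when replicate 3 of 2KO was dropped and 30 when its replicate 1 was. Of the 40 segments, 15 were called in each of the 6 fits that left out 1 library, among them Ighv7-3, Ighv9-3, Ighv9-1, Ighv1-9, Ighv5-4 and Ighv2-2. DESeq2 also called 37 of the 40 and lost Ighv7-1, Ighv3-2 (adjusted p = 0.419) and Ighv11-2 (adjusted p = 0.392).

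Between 2KO and RAG2_deficient the calls went in both directions and were few. Of the 183 segments 4 were called higher in 2KO, beside 1.26% of all genes tested, and 7 lower, beside 3.05%. The shares of the 183, 2.19% and 3.83%, include segments never tested, whereas those of all genes count tested genes only. The filter let 59 segments through, many of them only because deltaEmu was high. The number of calls is therefore not read as a result about V segments. By the group names this comparison differs in Rag2, and also in the enhancers if 2KO stands for the mice of the design text. These parts cannot be told apart, and the comparison shares the 2KO libraries with the comparison above.

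Ighv14-2 was 16.8-fold lower in 2KO, at 0.600 ± 0.0934 against 10.1 ± 3.81 CPM (log2 -4.09 ± 0.49 SE, adjusted p = 0.00583), and was the single segment called in each of the 6 fits without 1 library. Its neighbour in sequence Ighv14-1 had 1 and 0 counts against 29 and 16 (52.2-fold lower, interval 8.90 to 2105, adjusted p = 0.029). Ighv1-75 was 14.2-fold lower, with 6 and 2 counts against 50 and 49 (adjusted p = 0.0235), and Ighv1-74 9.34-fold lower, with 3 and 1 against 14 and 19 (adjusted p = 0.0381). The pseudogene Ighv1-41 had no count in 2KO against 14 and 22 (at least 6.86-fold lower, adjusted p = 0.0297). Ighv1-23 and Ighv1-18 completed the lower calls, with 1 count each in 2KO.

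Higher in 2KO were 4 distal segments, all in bin 4. The same 4 were also called higher in deltaEmu than in RAG2_deficient, so they do not set 2KO apart. In deltaEmu Ighv1-66 had 50 and 47 counts, Ighv1-85 19 and 24, Ighv8-8 44 and 74 and Ighv1-83 10 and 8. Ighv1-66 had 75 and 45 counts against 10 and 7, 5.98-fold higher (log2 2.56 ± 0.47 SE, adjusted p = 0.0297). Ighv1-85 had 26 and 28 against 1 and 0 (46.6-fold, interval 8.02 to 1874, adjusted p = 0.0169), Ighv8-8 24 and 18 against 1 and 2 (12.1-fold, interval 3.86 to 60.9, adjusted p = 0.0415), and the pseudogene Ighv1-83 16 and 12 against none (at least 4.01-fold, adjusted p = 0.0297). Ighv1-69, among the 3 leading segments of both groups, was at 2.08 ± 1.24 and 2.37 ± 0.751 CPM (log2 -0.21 ± 0.51, adjusted p = 0.878). So within bin 4, whose summed level overlapped between the groups, single segments were called in opposite directions.

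**Figure D5:**
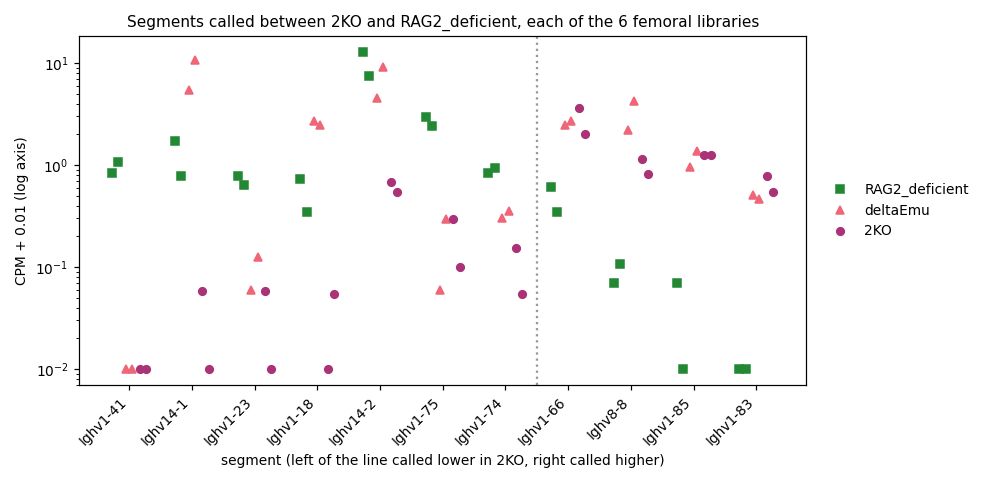
Level in CPM, on a log axis with 0.01 added, of the 11 segments called between 2KO and RAG2_deficient, with 1 point for each of the 6 femoral libraries; segments left of the dotted line were called lower in 2KO and points at 0.01 are libraries without a count. Ighv14-2 has the highest RAG2_deficient points, and the 4 segments on the right have 2KO points above those of RAG2_deficient.

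These 11 calls rested on small counts. Fewer segments were called when either 2KO library, either deltaEmu library or RAG2_deficient replicate 2 was left out. The 4 higher and 7 lower segments kept their sign in every such fit that tested them. DESeq2 gave 5 higher and 6 lower segments. It called all 4 of the higher segments and 4 of the 7 lower ones. Ighv1-74 (adjusted p = 0.057) and Ighv1-18 (adjusted p = 0.0627) were lost with it, and Ighv1-23 had no adjusted p. Erythroid markers (5 of 10 called higher in 2KO) and mature B cell markers (2 higher, 1 lower of 10) moved with the group. Stromal markers did too, with 7 of 8 called lower in 2KO (summed level 1222 to 1732 CPM against 7402 to 8616 CPM), as did 5 of 10 pro-B markers, called lower at 905 to 1340 CPM against 2977 to 3010 CPM, and their part in the V differences was not tested. The unnamed gene Gm30948, which lies on the forward strand across Ighv1-57 in bin 4, had 54.8 and 95.1 CPM in RAG2_deficient against 2.76 and 2.67 in 2KO and 1.97 and 3.60 in deltaEmu (log2 -4.82 for 2KO, edgeR adjusted p = 0.001), while Ighv1-57 itself had 3 and 4 counts, 0 and 0, and 0 and 0.

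Between deltaEmu and RAG2_deficient, 44 of the 183 segments were called higher in deltaEmu, beside 4.42% of all genes tested, and 4 lower, beside 5.39%. The higher calls comprised 17 segments of bin 1, 13 of bin 2, 6 of bin 3 and 8 of bin 4. These bins had 18, 13, 12 and 16 segments tested, 59 in all, many let through only because deltaEmu was high. The number of higher calls and their spread over bins are therefore not read as support. Ighv9-3 had 1 and 0 counts in RAG2_deficient and was 1696-fold higher in deltaEmu (interval 304 to 67027, adjusted p = 0.000111). Ighv1-9 was at least 131-fold higher (adjusted p = 0.00128), Ighv2-2 at least 85.0-fold (adjusted p = 0.000742) and Ighv2-9 at least 65.6-fold (adjusted p = 0.00134), each with no count in RAG2_deficient. Ighv14-2 was not called, with log2 -0.60 ± 0.40 SE (adjusted p = 0.394).

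The 4 lower calls were all of family 1, from the distal bins 3 and 4. Ighv1-75 had 1 and 5 counts in deltaEmu against 50 and 49, 15.9-fold lower (log2 -4.04 ± 0.69 SE, adjusted p = 0.0122), and Ighv1-72 had 1 and 3 against 23 and 22, 11.0-fold lower (adjusted p = 0.0317). Ighv1-41 had none against 14 and 22 and Ighv1-23 had 1 and 2 against 13 and 13. The counts of calls fell to 25 higher and 0 lower without deltaEmu replicate 5 and to 22 and 0 without replicate 7, and 21 of the 44 higher calls held in each fit without 1 library. DESeq2 also called 39 of the 44 and 3 of the 4, losing Ighv1-23 (adjusted p = 0.148) among the lower. Neutrophil markers (6 of 10 called higher, 18449 to 21180 against 7021 to 7777 CPM), mature B cell markers (6 of 10, 1352 to 1464 against 865 to 989 CPM), plasma cell markers (3 of 10, 885 to 992 against 343 to 372 CPM) and T cell markers (4 of 8, with 1 lower) moved with this comparison, while stromal markers (8 of 8 called lower) and pro-B markers (5 of 10 called lower) moved the other way. The part of these cells was not tested.

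SAHA was compared with no SAHA within the spleen cultures. Of the 183 segments 0 were called higher and 0 lower, as were 0% and 0% of the 13913 genes tested; 96 segments passed the filter. At an unadjusted p under 0.05 the edgeR fit gave 2 segments and DESeq2 0. Those 2 were Ighv2-4 (0.704 ± 0.145 CPM without and 0.304 ± 0.0163 with SAHA) and Ighv6-6 (16.0 ± 4.06 and 10.3 ± 0.921 CPM), both at an adjusted p of 0.939. The leader Ighv1-26 stood at 67.3 ± 14.4 and 59.7 ± 6.47 CPM (log2 -0.21 ± 0.24 SE), and Ighv6-3 at 38.6 ± 11.7 and 25.6 ± 0.711 CPM (log2 -0.63 ± 0.26 SE, adjusted p = 0.939). As a share of V counts, family 6 had 6.40% and 6.38% without SAHA and 4.99% and 4.51% with it, with no overlap and no test. The LPS_IL4 pools themselves differed by 1033 to 684 CPM in summed V level, more than the 2 conditions did.

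Segments with known roles in particular B cell responses were given in each group whatever their level. Ighv5-2 (VH81X), known for frequent joining in early life, had 38, 38, 43 and 35 counts in the spleen libraries, 7 and 5 in deltaEmu and none in 2KO or RAG2_deficient. Ighv11-2, used by B-1a cells against phosphatidylcholine, had 332 to 359 counts in the spleen, 72 and 143 in deltaEmu and none in the other femoral groups. Ighv12-3, another segment of that response, had 85, 38, 104 and 56 in the spleen, higher in pool 4_et_7 than in 6_et_8 with and without SAHA, and none in any marrow library. Ighv5-1 and Ighv1-86, the pseudogenes at the ends of the cluster, had at most 2 and 4 counts in any library.

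Pseudogene segments, which cannot encode a chain, took a larger share in the marrow. They held 0.521% to 0.672% of the V counts in the spleen, 3.77% and 4.54% in deltaEmu, 5.56% and 8.58% in RAG2_deficient and 8.87% and 13.5% in 2KO, on 36 and 40 counts in the last. The spleen range lay below every femoral library. In 2KO the largest were Ighv1-83, given above, and Ighv1-29, which had 0 and 12 counts and so came from 1 library, beside 15 and 11 in deltaEmu. Ighv1-83 had 10 and 8 in deltaEmu and none in RAG2_deficient.

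Absent segments were listed after their values had been seen. Of the 67 segments with 50 or more counts in every spleen library, 32 had none in 2KO, 18 of them in bin 1 and 11 in bin 2, and 20 had none in RAG2_deficient. With 702 V counts, 0 counts allow a share of up to 0.427% in 2KO, and the limit was 0.239% in RAG2_deficient. Some of the 32 lay under the 2KO limit in the spleen itself, such as Ighv7-1 at 0.292% to 0.314% of the V counts. For these, 0 counts in 2KO do not show a lower share. The segments without a count in 2KO also include Ighv6-3, which had 558 to 871 counts in each spleen library. In deltaEmu, with 13413 V counts, 3 such segments had none: Ighv5-16 (243 to 271 counts in the spleen), Ighv1-50 (192 to 255) and Ighv2-9-1 (78 to 118), where 0 counts allow up to 0.0224%. Conversely, 53 segments had no count in any spleen library, and a few of these were found in marrow: Ighv1-41 (14 and 22) and Ighv1-62-1 (14 and 6) in RAG2_deficient, Ighv8-10 there (6 and 10), Ighv8-14 in 2KO (6 and 4), and Ighv1-29 and Ighv7-2 (8 and 3) in deltaEmu. The spleen total of 71344 V counts allows a share of up to 0.0042% for each. Ighv1-62-1 is overlapped by the gene Gm19331, and whether its counts come from that gene was not tested.

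The factors that open, fold and recombine the V cluster were read from a list of 18 genes. Between 2KO and deltaEmu 0 of 18 were called in either direction, with a median log2 difference of 0.04 beside -0.01 over all genes tested. Pax5, needed for contraction of the locus, had 72.1 and 46.6 CPM in 2KO and 57.6 and 81.3 CPM in deltaEmu, and Ctcf, which anchors its loops, 171 and 195 and 189 and 163 CPM. Against RAG2_deficient, 4 were called lower in 2KO (Rag1, Pax5, Ebf1 and Dntt) and the same 4 and Foxo1 in deltaEmu. Il7r, the interleukin 7 receptor of pro-B cells, had 66.1 and 110 CPM in RAG2_deficient, 47.0 and 58.4 in deltaEmu and 44.2 and 36.2 in 2KO, with a log2 difference of -1.17 ± 0.27 SE and an adjusted p of 0.0544 for 2KO against RAG2_deficient. The spleen comparison had 0 calls among the 15 of the list that were tested.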

How the data were processed

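Total RNA of 10 pools was sequenced from TruSeq Stranded Total RNA libraries, per the labels' protocols. The count table the authors deposited gives unnormalised counts for each gene on mm10. STAR 2.4.0a and Subread 1.4.6-p1, which holds featureCounts, are named in the submitters' processing notes. For the annotation release, the strand setting and multimapped reads, the value used was not given in the sources used here. Spike-in and control entries (100) were left out, and every sample column was mapped.

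Counts were tested with edgeR 4.0.16 (R 4.3.3): filterByExpr with a minimum count of 10, TMM factors, quasi-likelihood tests and p-values adjusted by Benjamini-Hochberg across every gene tested, with calls at an adjusted p of 0.05. The 6 femoral libraries entered 1 fit (16538 genes) and the 4 spleen libraries another (13913 genes). CPM levels use TMM factors over all 10 libraries. Where a group was at 0, a bound used 3 counts per library; where it held 1 to 3 counts, the ratio carries a 95% counting interval. DESeq2 1.42.0, other scalings, no filter, left-out libraries, 1 fit of 10 libraries and a pool block were alternatives. The fit was tested on simulated data. Total counts of 17710154 to 25544275 per library left 296 to 19209 for V segments, which sets the precision.

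The members and lists were chosen with earlier results of these data known. Named segments were the 5 of highest CPM in each group, the 5 called with the largest change in each direction that reached 1 CPM without overlap, the cluster's ends and 5 fixed segments. Others were named after their values were seen. Same-pool spleen libraries deviated in opposite directions (Pearson -0.473 over 15906 genes), although the labels give them the same pool name. Over all genes with 10 or more counts, replicate libraries differed beyond sampling noise in every group (chi-square per degree of freedom 29.0 to 198). Over the V segments alone this measure was far smaller, from 1.38 in RAG2_deficient to 6.68 in deltaEmu.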

Additional observations from a re-analysis of the deposited data

How the results depend on the processing

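No named segment that was called in the main fit or in an alternative run reversed its direction between them. Changes of sign where neither fit called the segment were not tallied. Leaving out 1 library gave 16 to 49 segments lower in 2KO than in deltaEmu, 0 to 4 higher and 1 to 7 lower in 2KO than in RAG2_deficient, and 22 to 48 higher and 0 to 5 lower in deltaEmu than in RAG2_deficient. Where a group was left with 1 library, that library was assumed to vary like the other groups. Without the filter on low counts, 10 segments were higher and 17 lower in 2KO than in RAG2_deficient and 8 lower in deltaEmu than in RAG2_deficient. The cause was not tested. The SAHA comparison gave 0 called segments under every alternative, including the replicate block by pool (0 higher, 0 lower) and the crossed pairing, which was added after seeing the data (0 and 0). Without LPS_IL4 pool 4_et_7, 1085 genes were called higher and 1585 lower with SAHA, none of them a V segment. No paired analysis was made for the femoral groups, since no label links a library of one group to a library of another. Depth limits 2KO most, with 702 V counts in all.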
